A study of Mus musculus with 9 samples.

Results

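The CCN family of matricellular proteins was followed through the cells of the adult mouse thyroid after antibody blockade of Notch signalling. The genes were chosen by name: Ccn1, Ccn2, Ccn3, Ccn4 and Ccn5, matched through their Ensembl identifiers, 5 of the 52636 genes in the count table. All 5 were found, and the sixth gene of the family, Ccn6, is given for comparison. Single thyroid cells of male C57BL/6 mice were profiled with the 10x Genomics 3' v2 chemistry, 7 days after 1 intraperitoneal injection. The mice were 10 to 12 weeks old in the series' design text and 10 to 14 weeks in the protocol. The control group, RW, received an anti-ragweed antibody at 40 mg/kg. The ligand blockade, aJ1aJ2, combined antibodies to Jag1 and to Jag2 at 20 mg/kg each. The receptor blockade, aN1aN2, combined an antibody to Notch1 at 5 mg/kg with an antibody to Notch2 at 10 mg/kg. Each group had 3 samples, each a pool of the thyroids of 6 mice digested together with Liberase, so a sample carries no spread between single animals. The antibodies were given systemically, with no cell type singled out, and no allele or strain differed between groups.

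CCN proteins are secreted into the matrix around cells. They are built from cysteine-rich modules: an insulin-like growth factor binding protein module, a von Willebrand factor type C module, a thrombospondin type 1 module and a C-terminal cysteine knot, which Ccn5 lacks. They act through integrins, heparan sulfate proteoglycans and LRP receptors rather than through a receptor of their own. Ccn1 and Ccn2 are standard readouts of the transcription factors YAP, TAZ and TEAD, Ccn2 is also a classical target of TGF-beta, and Ccn4 was found as a gene induced by Wnt and beta-catenin signalling.

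All members share a run of closely spaced cysteines in the first module, shown here because it lets the members be compared base by base. The run is the signature of the insulin-like growth factor binding protein module, which the binding proteins of that name carry too. The lines give the 24 coding bases of this run, 5′ to 3′ in the sense of the gene, from the GENCODE vM21 transcripts of mouse build GRCm38. Capitals mark the 4 cysteine codons.
Ccn1: ggcTGCggcTGCTGTaaggtcTGC
Ccn2: ggcTGCggcTGCTGCcgcgtcTGC
Ccn3: ggcTGCtccTGCTGTccggtgTGC
Ccn4: ggcTGTgaaTGCTGTaagataTGT
Ccn5: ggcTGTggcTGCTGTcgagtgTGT
Ccn6: ggcTGTggaTGCTGCaaagtcTGT
Each run was found by its pattern of a glycine and 4 cysteines at set places, so these codons line up in all 6 genes by choice. The bases between them differ. With the codons set by the pattern counted in, Ccn1 and Ccn2 had 20 of 24 bases in common, while Ccn2 and Ccn4 had 14. The whole coding sequence held 38 cysteine codons in Ccn1, 39 in Ccn2, 40 in Ccn3, 38 in Ccn4 and 29 in Ccn5, which had 753 coding bases against 1044 to 1137 in the other members.

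The runs lie in coding exons. On GRCm38, Ccn1 (ENSMUSG00000028195) lies on the minus strand at chr3:145646976-145649981, with the printed run in exon 2 at chr3:145649331-145649354. Ccn2 (ENSMUSG00000019997) lies on the plus strand at chr10:24595442-24598683, with the run in exon 2 at chr10:24595966-24595989. Ccn3 (ENSMUSG00000037362) lies on the plus strand at chr15:54745702-54754039, with the run in exon 2 at chr15:54746265-54746288. Ccn4 (ENSMUSG00000005124) lies on the plus strand at chr15:66891320-66923201, with the run in exon 2 at chr15:66906545-66906568. Ccn5 (ENSMUSG00000027656) lies on the plus strand at chr2:163820861-163833146, with the run in exon 3 at chr2:163825225-163825248. Ccn6 (ENSMUSG00000062074) lies on the minus strand at chr10:39150970-39163794, with the run in exon 2 at chr10:39158371-39158394. Ccn2 overlaps the antisense gene Gm15270, and whether the counting used strand is not given in the sources used here. Gm15270 itself had 0 to 22 UMIs (unique molecular identifiers, counted molecules) per sample in every label with at least 20 cells. In RW it held 24 UMIs in the label Th1, 37 in EC1 and 3 in EC4, against 1804, 223 and 4 of Ccn2. Ccn2 had 7635 UMIs in the whole table.

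The table held 10186 cells and 63121420 UMIs, with 583 to 1805 cells and 3013324 to 11880793 UMIs per sample. Cells were grouped by the 16 labels that the authors deposited. UMIs were summed per sample and label, a level is given as CPM (counts-per-million scaling to the total of the sum), and sums of under 20 cells were left out. Th1 carried thyrocyte markers (summed level 89605 to 96866 CPM in RW), F carried fibroblast markers (35533 to 45194 CPM) and SM carried mural cell markers (40024 CPM in its 1 RW sample). EC1 and EC4 carried endothelial markers at 18277 to 19798 CPM in RW. EC3 was mixed: its RW sums held endothelial markers at 4202 to 5671 CPM, mural cell markers at 2771 to 4478 CPM and lymphatic markers at 1835 to 3509 CPM. The sample numbers in the titles fall into 3 series, and the 3 aN1aN2 samples form a series of their own, so receptor blockade and that series cannot be told apart in any result below. Of the cell barcodes, 15 occurred in more than 1 sample, in 30 cells.

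The members differed in where they were found in the control thyroid. Ccn4, the Wnt-induced member, was a thyrocyte transcript: Th1 held 95.6% of its UMIs in RW, at 133 to 211 CPM (162 ± 42.7, SD, n = 3). The next label, F, was at 21.1 ± 14.3 CPM (n = 3), and the 2 ranges did not overlap. The small label Th2 had fewer than 20 cells in every RW sample and so has no place in this order, but its cells were rich in Ccn4: 16 UMIs in RW 1, 0 in RW 2 and 11 in RW 3, or 677, 0 and 753 CPM. In its 2 sums of at least 20 cells, aJ1aJ2 3 and 4, Ccn4 stood at 1113 and 322 CPM, the highest level of any label in that group. Behind these values lie 38 and 9 UMIs, of which single cells gave 26 and 6. Neutrophil markers summed to as much as 68389 CPM in these sums and thyrocyte markers to 25217 to 35645 CPM, so Th2 was a mixed label. In aN1aN2 1, 2 and 3 Th2 held 1, 0 and 5 UMIs, on under 20 cells each. Ccn4 had no UMI in RW in EC2, EC4, Eryth1, Eryth2, T1 or T2.

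Ccn2, known as connective tissue growth factor, was found in more labels than the other members. Its RW level was 413 ± 297 CPM in F (n = 3), 396 ± 242 CPM in the Schwann cell label S (n = 2) and 182 ± 76.6 CPM in Th1 (n = 3). The samples of these labels overlapped, so their order is not set by these data. By number of molecules Th1 was ahead, with 65.6% of the Ccn2 UMIs of RW against 12.0% for F. EC1 was at 44.4 ± 12.1 CPM (n = 3) and EC4 at 9.57 ± 16.6 CPM (n = 3), the latter overlapping the 0 to 13.5 CPM of the erythroid label Eryth1, a level that free RNA can give.

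Ccn3, best known from vascular cells, was highest in the vessel labels. SM stood at 843 CPM in its 1 RW sample, followed by EC3 at 520 ± 220 CPM (n = 3) and F at 165 ± 30.4 CPM (n = 3). EC3 and F did not overlap. S at 47.4 ± 24.9 CPM (n = 2) and EC1 at 47.4 ± 19.9 CPM (n = 3) followed, and EC3 held 52.2% of all Ccn3 UMIs of RW.

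Ccn1, an immediate early gene in many cell types, was at low levels in vessel labels and in F. It stood at 167 CPM in the 1 SM sample, 44.7 ± 9.48 CPM in EC2 (n = 2), 34.4 ± 23.6 CPM in EC3 (n = 3), 19.7 ± 22.6 CPM in F (n = 3) and 13.1 ± 7.21 CPM in EC1 (n = 3). From EC2 down to EC1 each label overlapped the one above it. Ccn5, the short member, was close to a fibroblast transcript: F held 83.1% of its RW UMIs, at 66.9 ± 43.7 CPM (n = 3), and no other label passed 6.97 CPM. Ccn6 had 13 UMIs in the whole table, 11 of them in the thymocyte-marker label T2, and none in Th1, F or SM in RW.

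**Figure D1:**
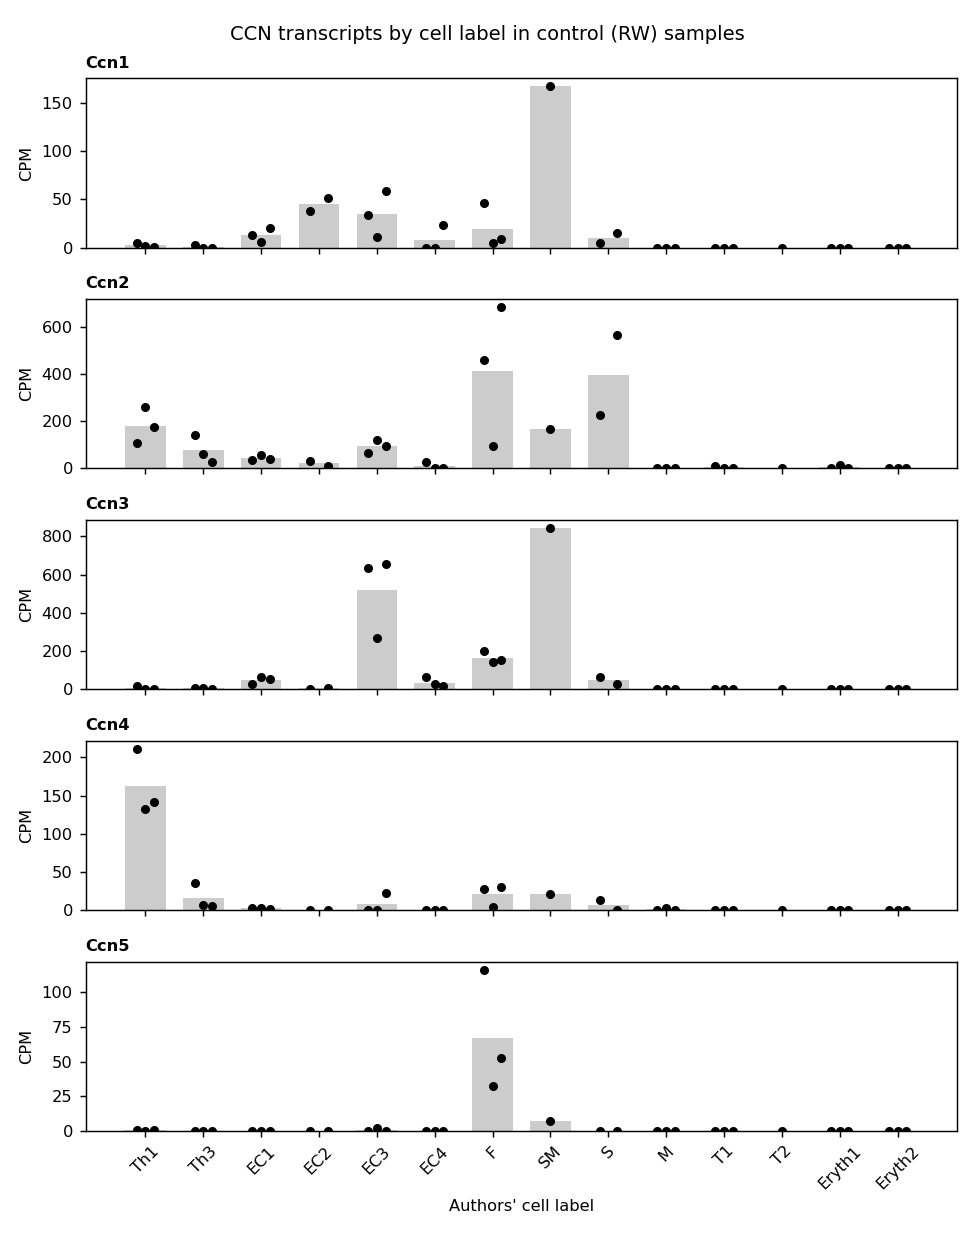
Level of each member in the control (RW) samples by cell label, in CPM ( linear axes that differ between panels). Bars are means and points are samples with at least 20 cells of the label. Ccn4 is highest in Th1, Ccn5 in F and Ccn3 in SM and EC3, while Ccn2 is spread over F, S, Th1 and SM.

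Changes were tested with edgeR's quasi-likelihood test on the sums, and a change was called at a Benjamini-Hochberg adjusted p under 0.05 over all genes of the label. Values from here on are CPM scaled to the TMM-adjusted totals, and changes are log2 values with their standard error (SE). Of 17 member and label pairs tested, 1 passed for ligand blockade against RW. For receptor blockade against RW 6 of 16 passed, and for receptor against ligand blockade 8 of 19. These comparisons share samples, so their counts are not independent. The share of all tested genes that passed in either direction sets the background. For receptor blockade against RW it was 34.4% in Th1, 5.03% in Th3, 17.8% in EC1, 15.5% in EC2, 5.91% in EC3, 21.1% in EC4 and 19.8% in F. For receptor against ligand blockade it was 22.3% in Th1, 1.44% in Th3, 13.5% in EC1, 10.5% in EC2, 1.27% in EC3, 17.2% in EC4, 16% in F and 4.05% in SM. For ligand blockade against RW it was 0.612% in Th1, 0% in Th3 and S, 1.43% in EC1, 1.91% in EC2, 0.0618% in EC3, 0.903% in EC4 and 0.579% in F. Ccn5 was tested in F alone, Ccn4 in Th1 alone, and Ccn6 nowhere, since their counts were too low in the other labels tested. Th2, rich in Ccn4, was not tested, since no RW or aN1aN2 sample had 20 of its cells.

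Ccn4 fell 10.4-fold in thyrocytes under receptor blockade. Its level in Th1 was 211, 135 and 144 CPM in RW 1, 2 and 3. It was 195, 167 and 203 CPM in aJ1aJ2 1, 3 and 4, and 15.9, 15.1 and 16.9 CPM in aN1aN2 1, 2 and 3. The 3 receptor blockade samples lay together, far under the lowest control, and the ligand blockade samples lay within the range of the controls.

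Ccn4 in Th1 fell by 3.38 on the log2 scale (SE 0.20), from 163 ± 41.3 to 16 ± 0.891 CPM (SD, n = 3 each), with an adjusted p of 2.57e-08 in edgeR's quasi-likelihood test. Against ligand blockade it fell by 3.56 (SE 0.20, edgeR adjusted p 3.54e-08). Ligand blockade against RW gave 0.19 (SE 0.15, edgeR adjusted p 0.654). In all processing alternatives tried, the change under receptor blockade stayed between -3.73 and -2.98, with edgeR and DESeq2 adjusted p-values no higher than 1.51e-06.

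Other genes of Th1 moved in the same comparison. Of its thyrocyte markers 4 of 7 were called lower and 2 higher (median -0.66), and 2 of 4 mural cell and 2 of 7 endothelial markers were lower. A C cell marker, 1 of 2 tested, was higher, with list sums of 391 to 1044 CPM in RW and 991 to 1820 CPM in aN1aN2. Their part in the Ccn4 and Ccn2 results was not tested.

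Fewer thyrocytes held the transcript. At least 1 Ccn4 UMI was found in 86.1%, 69.0% and 77% of Th1 cells in RW 1, 2 and 3, and in 12.0%, 12.5% and 12.9% in aN1aN2 1, 2 and 3. Th1 cells were shallower under receptor blockade, with median totals of 5737 to 7558 UMIs against 12535 to 22558 in RW. With every cell thinned to 1000 UMIs (no Th1 cell of these samples was shallower) the shares were 14.4% ± 3.07 in RW, 18.4% ± 4.76 in aJ1aJ2 and 1.22% ± 0.417 in aN1aN2 (SD, n = 3 each). All samples of aN1aN2 lay below all RW samples, and the exact two-sided permutation test gave p = 0.10, the smallest that 3 against 3 samples allow. In Eryth2, which should lack Ccn4, 0 to 1.82% of cells had a UMI at median totals of 5822 to 11431 UMIs, under the 12.0% to 12.9% of Th1 in aN1aN2.

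Outside Th1 the counts of Ccn4 were small and did not all lie in the same direction. Th3, a shallow thyroid label, held 14 UMIs in RW and 1 in aN1aN2, a ratio of 6.72 with a 95% counting interval of 1.02 to 284. C cell markers in Th3 summed to 36445 to 66019 CPM in RW and to 700 to 10485 CPM in aN1aN2, and skeletal muscle markers to 52.8 to 402 and to 33.1 to 54993 CPM, so its make-up differed as well, and the part of this was not tested. F held 17 and 1, a ratio of 8.08 (1.27 to 338). In EC1 the 11 UMIs of RW corresponded to 2.14 CPM, under the 2.66 CPM that a count of 0 allows in aN1aN2, so no difference was detectable there at this depth. EC3 held 9 UMIs in RW and 0 in aN1aN2, likewise under the floor. T1 held 0 in RW and 4 in aN1aN2, the latter in sums of under 20 cells, Eryth2 held 0 and 3, and Eryth1 held 0 and 1. These intervals cover counting error only, and thyrocyte RNA outside Th1 was not separated from the cells' own.

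Ccn2 changed in the opposite direction to Ccn4 in the same thyrocytes. In Th1 it stood at 108, 264 and 181 CPM in RW 1, 2 and 3. It stood at 131, 114 and 211 CPM in aJ1aJ2 1, 3 and 4, and at 319, 351 and 340 CPM in aN1aN2 1, 2 and 3. All receptor blockade samples exceeded all others, and RW 2 came closest to them.

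Ccn2 in Th1 rose by 0.90 (SE 0.25) under receptor blockade, from 184 ± 78.0 to 337 ± 16.5 CPM (SD, n = 3 each, edgeR adjusted p 0.0121). DESeq2 gave 0.86 with an adjusted p of 0.0650 and did not call it. Against ligand blockade the rise was 1.16 (SE 0.26, edgeR adjusted p 0.00451), and ligand blockade against RW gave -0.26 (SE 0.25, edgeR adjusted p 0.734). The share of Th1 cells with a Ccn2 UMI was 55.8% ± 2.50 in RW and 57.8% ± 2.40 in aN1aN2 (SD, n = 3 each, exact two-sided permutation p = 0.400). Thinned to 1000 UMIs it was 15.8% ± 4.94 and 22.6% ± 3.45 (exact p = 0.300). Against ligand blockade the shares did not overlap, at 47.8% ± 5.54 of all cells and 9.42% ± 3.46 after thinning (exact p = 0.10 for each). In Eryth2, 0 to 1.82% of cells had a Ccn2 UMI at median totals of 5822 to 11431. Markers of other cells with much Ccn2 were read in Th1 as well. Those of fibroblasts summed to 4.20 to 14.0 CPM in Th1 of RW and 8.76 to 12.9 CPM in aN1aN2, those of mural cells to 13.3 to 88.2 and 16.4 to 19.5 CPM, and those of Schwann cells to 241 to 277 and 110 to 135 CPM. Parathyroid markers summed to 6.67 to 38.4 CPM in Th1 of RW against 96.4 to 237 CPM in aN1aN2, and their part in the result was not tested. Without cells that held a fibroblast or mural cell marker the rise was 0.81 (edgeR adjusted p 0.0115).

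In the endothelial label EC1, Ccn2 rose several-fold. Its level was 34.6, 59.3 and 42.7 CPM in RW 1, 2 and 3. It was 101, 39.6 and 71.4 CPM in aJ1aJ2 1, 3 and 4, and 215, 217 and 153 CPM in aN1aN2 1, 2 and 3. Ligand blockade overlapped the controls, and receptor blockade lay above both groups.

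The change of Ccn2 in EC1 under receptor blockade was 2.12 (SE 0.26), a 4.36-fold rise from 45.5 ± 12.6 to 195 ± 36.6 CPM (SD, n = 3 each, edgeR adjusted p 3.26e-06). Against ligand blockade it was 1.57 (SE 0.26, edgeR adjusted p 0.000167). Ligand blockade against RW gave 0.56 (SE 0.26, edgeR adjusted p 0.370). The share of EC1 cells with a Ccn2 UMI was higher in all 3 receptor blockade samples than in any control: 2.81% ± 1.52 in RW, 3.83% ± 1.46 in aJ1aJ2 and 13.5% ± 1.66 in aN1aN2 after thinning to 1000 UMIs (exact p = 0.10 for aN1aN2 against RW). Without thinning the shares were 14.1%, 16.8% and 29.5%.

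Markers of other cells also moved in EC1. Thyrocyte markers summed to 699 to 974 CPM in the controls and to 1322 to 1942 CPM after receptor blockade, with 6 to 7 and 5 to 6 of the 8 genes detected. Arterial markers (Gja4, Gja5, Bmx, Sema3g and Hey1) summed to 123 to 158 CPM in the controls and to 29.4 to 60.1 CPM after receptor blockade, with 3 of 5 genes detected in the latter. The 3 C cell markers summed to 47.1 to 71.0 CPM in the controls and to 160 to 219 CPM after receptor blockade. Fibroblast markers overlapped, at 16.3 to 68.4 and 19.0 to 270 CPM, with 1 of 2 tested called higher and none lower (median -0.05). Parathyroid markers summed to 38.9 to 71.9 CPM in the controls and to 180 to 286 CPM after receptor blockade, with the 1 tested called higher. Macrophage markers, with 2 of 2 tested called lower, summed to 64.3 to 169 and to 0 to 6.33 CPM, and 0 to 2 of the 5 were detected after receptor blockade. The part of the arterial, C cell, parathyroid and macrophage shifts in the Ccn2 and Ccn3 results of EC1 was not tested. Without cells that held a thyrocyte marker other than Tg the change of Ccn2 was 1.91 (edgeR adjusted p 0.000125), and without cells that held a fibroblast or mural cell marker it was 1.94 (edgeR adjusted p 1.89e-05). Both restrictions were chosen after the values were seen.

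EC4, the shallow endothelial label (median totals of 880 to 1213 UMIs per cell), gained Ccn2 from almost none. RW held 4, 0 and 0 UMIs in RW 1, 2 and 3, or 35.3, 0 and 0 CPM. Ligand blockade held 5, 40 and 9 UMIs in aJ1aJ2 1, 3 and 4, or 119, 268 and 56.9 CPM. Receptor blockade held 52, 52 and 38 UMIs in aN1aN2 1, 2 and 3, or 289, 395 and 362 CPM. The 3 groups did not overlap, with RW lowest and receptor blockade highest.

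Ccn2 in EC4 rose by 4.53 under receptor blockade (SE 0.60, edgeR adjusted p 2.35e-06), to 349 ± 54.1 CPM from 11.8 ± 20.4 CPM (SD, n = 3 each). Its size is loosely set, since the control level rests on 4 UMIs of RW 1: leaving out each sample in turn gave 3.91 to 8.34, the latter without RW 1 and against controls that are all at 0, and so no estimate of size. The 4 UMIs of RW are under the low-count filter, so Ccn2 entered the EC4 fit through the counts of the blockade samples. The share of EC4 cells with a UMI was 1.04% ± 1.80 in RW, 5.52% ± 1.29 in aJ1aJ2 and 15.7% ± 1.10 in aN1aN2. The RW samples held 3.12%, 0% and 0%, and the aN1aN2 samples 14.6% to 16.8%. The share in Eryth1, whose cells are deeper at median totals of 1322 to 2170 UMIs, was 0 to 2.91%. On thinning to 1000 UMIs, 30 to 65 cells per RW sample and 53 to 83 per aN1aN2 sample fell short and were left out, and the shares were 1.36% ± 2.36 and 16.8% ± 2.10. Without cells that held a thyrocyte marker other than Tg the change was 4.32 (edgeR adjusted p 9.37e-06), and thyrocyte markers in EC4 summed to 1778 to 2738 CPM in the controls and to 1596 to 1930 CPM after receptor blockade. C cell markers were called higher, 2 of the 2 tested, at 93.3 to 156 CPM in the controls and 283 to 522 CPM after receptor blockade, and so was the 1 parathyroid marker tested, with list sums of 24.8 to 327 and 116 to 3744 CPM. Erythroid markers, of which none of 2 passed, summed to 179 to 855 and to 1375 to 1914 CPM. Mural cell markers summed to 46.8 to 64.6 and to 69.5 to 199 CPM, Schwann cell markers to 35.9 to 663 and to 4.96 to 19.7 CPM, and macrophage markers to 7.80 to 78.9 CPM and to 0. Without cells that held a fibroblast or mural cell marker the change of Ccn2 was 4.40 (edgeR adjusted p 7.07e-06). The part of the other lists in it was not tested.

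This label gave the only change called for ligand blockade against RW. Ccn2 in EC4 rose by 3.38 (SE 0.72, edgeR adjusted p 0.0175), to 148 ± 109 CPM (SD, n = 3). Its size is as loosely set as that of receptor blockade, from 2.27 to 7.19 on leaving out each sample. In aJ1aJ2 3 a single cell held 19 of the 40 UMIs, 47.5%. The call was lost without RW 3 (edgeR adjusted p 0.0747), without aJ1aJ2 3 (0.343), with cells of at least 1000 UMIs (0.120) and with the series of sample numbers as a term (0.0786), with the direction kept in each. DESeq2 gave it no adjusted p. With only the 2 groups, within series B or with equal cells per sample, Ccn2 in EC4 did not pass the low-count filter and was not tested. In the main fit it passed that filter with the aN1aN2 samples included. Receptor against ligand blockade gave 1.15 (SE 0.35, edgeR adjusted p 0.0216), which was lost without aJ1aJ2 4 (0.295), without aN1aN2 2 (0.0837), with cells of at least 1000 UMIs (0.0945), without cells that held a thyrocyte marker other than Tg (0.0620) and in DESeq2 (0.373). On leaving out each sample it ran from 0.59 to 2.26. For ligand blockade against RW, only the erythroid list among those tested in EC4 had a called marker, 1 of 2 higher (median 2.38). Its part in the Ccn2 result was not tested.

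The antisense gene Gm15270 had 3 to 10 UMIs per aN1aN2 sample in EC4 against 0 to 2 in RW, and 8 to 13 against 9 to 19 in EC1. Its part in the Ccn2 counts was not tested.

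Ccn2 did not move in step in every label. In F, among the labels rich in Ccn2 in the controls, it was 504, 103 and 746 CPM in RW 1, 2 and 3, and 366, 312 and 210 CPM in aN1aN2 1, 2 and 3. The receptor blockade samples fell inside the wide range of the controls, with a difference of -0.54 (SE 0.47, edgeR adjusted p 0.474). Without RW 3 it was 0.02, and without RW 2 it was -1.04 with an edgeR adjusted p of 0.0281. Erythroid markers in F summed to 95.9 to 240 CPM in the controls and to 716 to 34500 CPM after receptor blockade, and their part in the F values was not tested. In Th3 the differences had edgeR adjusted p-values of 0.977 and above. EC2 held 41.4 and 10.4 CPM in RW 1 and 2 and 180, 30.1 and 213 CPM in aN1aN2 1, 2 and 3, a difference of 2.16 (SE 0.74) that missed the threshold (edgeR adjusted p 0.0594). Without aN1aN2 2 the adjusted p in EC2 was 0.00605. Mural cell markers in EC2 summed to 583 to 2079 CPM in the controls and to 1214 to 7125 CPM after receptor blockade, with 1 of 4 called higher and a median of 1.98, and their part in the EC2 values was not tested. EC3 held 65.9, 127 and 98.8 CPM in RW and 17.2, 294 and 286 CPM in aN1aN2, where 1 cell gave 40 of the 41 UMIs of aN1aN2 3. The EC3 difference was 1.09 (edgeR adjusted p 0.241), and -0.18 without the highest cell of each sum. It passed in 2 of 16 alternatives, and ran from 0.73 to 1.58 on leaving out each sample.

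Ligand blockade left the other member and label pairs uncalled against RW, 16 of them with edgeR adjusted p-values of 0.370 to 0.998. In F, Ccn2 was 292, 622 and 579 CPM in aJ1aJ2 1, 3 and 4, inside the range of the controls (difference 0.20, edgeR adjusted p 0.961). In S, where glial cells of the nerves are found, Ccn2 was 322 and 696 CPM in RW 1 and 3 and 478 and 184 CPM in aJ1aJ2 3 and 4, and the groups overlapped (difference -0.58, SE 0.65, edgeR adjusted p 0.739).

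The difference between labels was itself tested, as the change in a label less the change in F with the sample as a block. For receptor blockade against RW, the Ccn2 change exceeded that in F by 2.67 in EC1 (SE 0.52, edgeR adjusted p 0.000896), by 5.34 in EC4 (SE 0.59, 1.80e-10, and 4.23 to 9.83 on leaving out each sample), by 2.41 in EC2 (SE 0.61, 0.00390) and by 1.39 in Th1 (SE 0.43, 0.0426). The Th1 difference was lost without RW 1 (edgeR adjusted p 0.254), RW 3 (0.180), aN1aN2 2 (0.106) or aN1aN2 3 (0.0538), and ran from 0.82 to 2.47. The EC2 difference was lost without RW 1 (0.544), aN1aN2 1 (0.0887) or aN1aN2 3 (0.0725), and ran from 1.99 to 2.95. EC3 (1.29, SE 0.70, edgeR adjusted p 0.383) and Th3 (0.45, SE 0.77, 0.886) did not pass against F. The change in Th1 was in turn smaller than that in EC1, by -1.15 (SE 0.24, edgeR adjusted p 0.00253). EC4 and EC1 differed by 2.43 (SE 0.73), which did not pass (edgeR adjusted p 0.129).

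**Figure D2:**
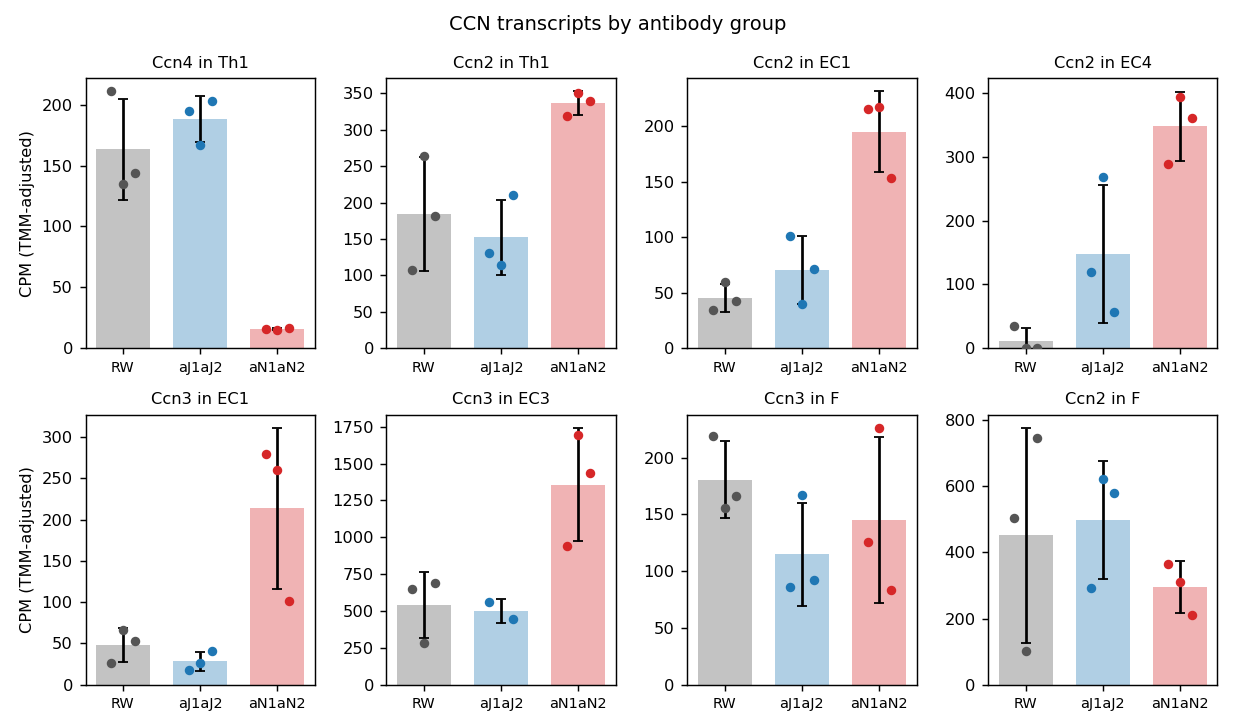
Level of Ccn4, Ccn2 and Ccn3 in the labels described, by antibody group, in TMM-adjusted CPM (linear axes that start at 0 and differ between panels). Bars are means, error bars SD and points samples with at least 20 cells (EC3 has 2 aJ1aJ2 samples). Ccn4 in Th1 is near 16 CPM in all aN1aN2 samples, and Ccn2 in EC1 and EC4 is higher there than in any other sample, whereas in F the groups overlap.

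Ccn3, which binds integrins and has been reported to bind Notch1, rose in EC1 and in the mixed label EC3 under receptor blockade. In EC1 it was 25.9, 66.2 and 53.6 CPM in RW 1, 2 and 3. It was 17.9, 26.8 and 41.1 CPM in aJ1aJ2 1, 3 and 4, and 279, 260 and 102 CPM in aN1aN2 1, 2 and 3. The receptor blockade samples lay above all others, with aN1aN2 3 the lowest of them.

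Ccn3 in EC1 rose by 2.17 against RW (SE 0.31, edgeR adjusted p 2.32e-05), from 48.6 ± 20.6 to 214 ± 97.3 CPM (SD, n = 3 each), and by 2.83 against ligand blockade (SE 0.34, edgeR adjusted p 3.51e-06). Ligand blockade against RW gave -0.67 (SE 0.34, edgeR adjusted p 0.435). The share of positive cells did not set receptor blockade and RW apart: 14.5% ± 0.902 of EC1 cells had a UMI in RW and 15.2% ± 4.35 in aN1aN2 (n = 3 each, exact two-sided permutation p = 0.800), with 3.73% and 5.48% after thinning (exact p = 0.400). Ligand blockade lay lower, at 8.53% ± 0.735 of all cells, with no overlap with aN1aN2 (exact p = 0.10), and at 2.10% ± 1.06 after thinning (exact p = 0.200). Positive cells held 1.5, 3.07 and 2.81 UMIs on average in RW 1, 2 and 3 and 6.78, 6.93 and 4.00 in aN1aN2 1, 2 and 3. In aN1aN2 1 a single cell held 86 of 122 UMIs, 70.5%, and without the highest cell of each sum the rise was 1.72 (edgeR adjusted p 0.000633).

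In EC3, which had the highest Ccn3 level of any label in both blockade groups and stood behind the 1 SM sample in RW, the levels were 651, 283 and 689 CPM in RW 1, 2 and 3. They were 559 and 444 CPM in aJ1aJ2 3 and 4, and 938, 1694 and 1438 CPM in aN1aN2 1, 2 and 3. Receptor blockade lay above the controls in all 3 samples, on sums of only 25 to 37 cells.

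Ccn3 in EC3 rose by 1.33 against RW (SE 0.29, edgeR adjusted p 0.0131), from 541 ± 224 to 1357 ± 385 CPM (SD, n = 3 each). The call was lost without aN1aN2 2 (edgeR adjusted p 0.0742), with sums of at least 10 cells (0.0521) and with equal cells per sample (0.0613), at changes of 1.15 to 1.34. Against ligand blockade the difference of 1.44 missed the threshold (SE 0.34, edgeR adjusted p 0.0541). It passed in 7 of 14 alternatives, among them DESeq2 (0.00922), no filter on low counts (2.67e-06) and only the 2 groups (0.0110), and ran from 1.24 to 2.28 over all of them. The share of positive cells was 38.4% ± 2.86 in RW and 39.9% ± 6.50 in aN1aN2 (n = 3 each, exact p = 0.800). The make-up of the label shifted at the same time: mural cell markers summed to 2771 to 4478 CPM in the controls and to 774 to 1012 CPM after receptor blockade. Fibroblast markers summed to 68.8 to 955 and to 24.2 to 38.7 CPM in these groups, lymphatic markers to 1835 to 3509 and to 747 to 1516 CPM, and endothelial markers to 4202 to 5671 and to 6053 to 7759 CPM. Of the 7 mural markers 4 to 6 were detected in aN1aN2. Erythroid markers, 2 of 2 tested called higher, summed to 96.9 to 232 and to 596 to 965 CPM, and parathyroid markers, 1 of 1 called higher, to 20.9 to 42.9 and to 59.5 to 261 CPM. The part of this shift in the Ccn3 result was not tested, and a fit of EC3 for receptor blockade against RW without cells that held a fibroblast or mural cell marker could not be made with 20 cells per sum.

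In F, Ccn3 was 219, 156 and 166 CPM in RW 1, 2 and 3, and 126, 226 and 83.8 CPM in aN1aN2 1, 2 and 3. The groups overlapped, and in aN1aN2 2 a single cell gave 33 of the 34 UMIs. The difference was -0.25 (SE 0.33, edgeR adjusted p 0.655). The change in F was below that in EC1 by -2.58 (SE 0.38, edgeR adjusted p 1.60e-05) and below that in EC3 by -1.73 (SE 0.37, edgeR adjusted p 0.00805). EC1 and EC3 differed by 0.78 (SE 0.45), which did not pass (edgeR adjusted p 0.521).

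Ccn1, the member with the most bases in common with Ccn2 in the printed run, had no change against RW that passed in the main fit. Among the alternatives it passed in 1 of 10 for EC3 under receptor blockade. Under ligand blockade it passed in 1 of 17 for F and 1 of 11 for EC2, and 1 turned direction in each. In EC1 it stood at 13.3, 6.16 and 20.9 CPM in RW 1, 2 and 3 and at 11.4, 2.68 and 3.18 CPM in aN1aN2 1, 2 and 3, a difference of -1.19 (SE 0.72) that did not pass (edgeR adjusted p 0.294). In EC3 it stood at 33.9, 12.1 and 61.4 CPM in RW and at 8.60, 0 and 6.98 CPM in aN1aN2. These EC3 groups did not overlap, but rest on 46 and 2 UMIs, a ratio of 7.16 with a 95% counting interval of 1.87 to 60.9, and the fitted difference of -2.74 did not pass (SE 1.21, edgeR adjusted p 0.224). In F it was 50.0, 5.03 and 9.5 CPM in RW and 63.1, 13.3 and 83.8 CPM in aN1aN2, with a difference of 1.31 (SE 1.00, edgeR adjusted p 0.402). In EC2 it was 47.3 and 62.2 CPM in RW 1 and 2 and 129, 45.1 and 23.6 CPM in aN1aN2, with a difference of 0.48 (SE 1.02, edgeR adjusted p 0.805). In EC1, EC2 and F the Ccn1 groups overlapped.

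Ccn5 in F was low and uneven. It stood at 127, 35.2 and 57.0 CPM in RW 1, 2 and 3, at 66.2, 42.7 and 26.7 CPM in aJ1aJ2 1, 3 and 4, and at 0, 46.4 and 0 CPM in aN1aN2 1, 2 and 3. A single aN1aN2 sample held all 7 UMIs of its group, and lay inside the range of the controls. The difference between receptor blockade and RW was -1.99 (SE 0.80, edgeR adjusted p 0.0913). It passed without RW 2 (edgeR adjusted p 0.0325), without aN1aN2 2 (0.0153) and with no filter on low counts (0.000986). By pooled counts RW stood 4.01 times above aN1aN2, with a counting interval of 1.83 to 10.4. In RW 1 a single cell held 27 of the 33 UMIs. F cells had median totals of 5561 to 10026 UMIs in RW and 2295 to 3864 in aN1aN2.

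In SM, receptor blockade could be compared only with ligand blockade, which had 2 samples. Ccn3 was at 1094 CPM in RW 3, at 21.6 and 632 CPM in aJ1aJ2 3 and 4, and at 15.3, 73.3 and 0 CPM in aN1aN2 1, 2 and 3. Ccn2 was at 217 CPM in RW 3, at 281 and 1672 CPM in aJ1aJ2, and at 413, 403 and 276 CPM in aN1aN2. Ccn1 was at 217 CPM in RW 3, at 108 and 793 CPM in aJ1aJ2, and at 260, 91.6 and 19.7 CPM in aN1aN2. In each case aJ1aJ2 4 was high, and aJ1aJ2 3 lay within the range of aN1aN2.

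All 3 members were called lower in SM under receptor than under ligand blockade, against 4.05% of all genes called in either direction. Ccn3 fell by 3.41 (SE 0.74, edgeR adjusted p 0.00272), Ccn1 fell by 1.77 (SE 0.53, edgeR adjusted p 0.0433) and Ccn2 fell by 1.41 (SE 0.40, edgeR adjusted p 0.0289). These calls rested on aJ1aJ2 4: without it the differences were 0.45, 0.32 and 0.42 and none passed. DESeq2 called none of them, with adjusted p-values of 0.942, 0.999 and 0.510. In aJ1aJ2 4 a single cell held 46 of the 59 Ccn3 UMIs. Markers of other cells were called lower in the same comparison: fibroblast markers 3 of 3 (580 to 1368 CPM under ligand and 119 to 313 CPM under receptor blockade), endothelial markers 2 of 6 and skeletal muscle markers 2 of 3. Erythroid markers were called higher, 2 of 2 (320 to 344 and 808 to 1742 CPM), as was the 1 parathyroid marker tested. Their part in the SM results was not tested.

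**Figure D3:**
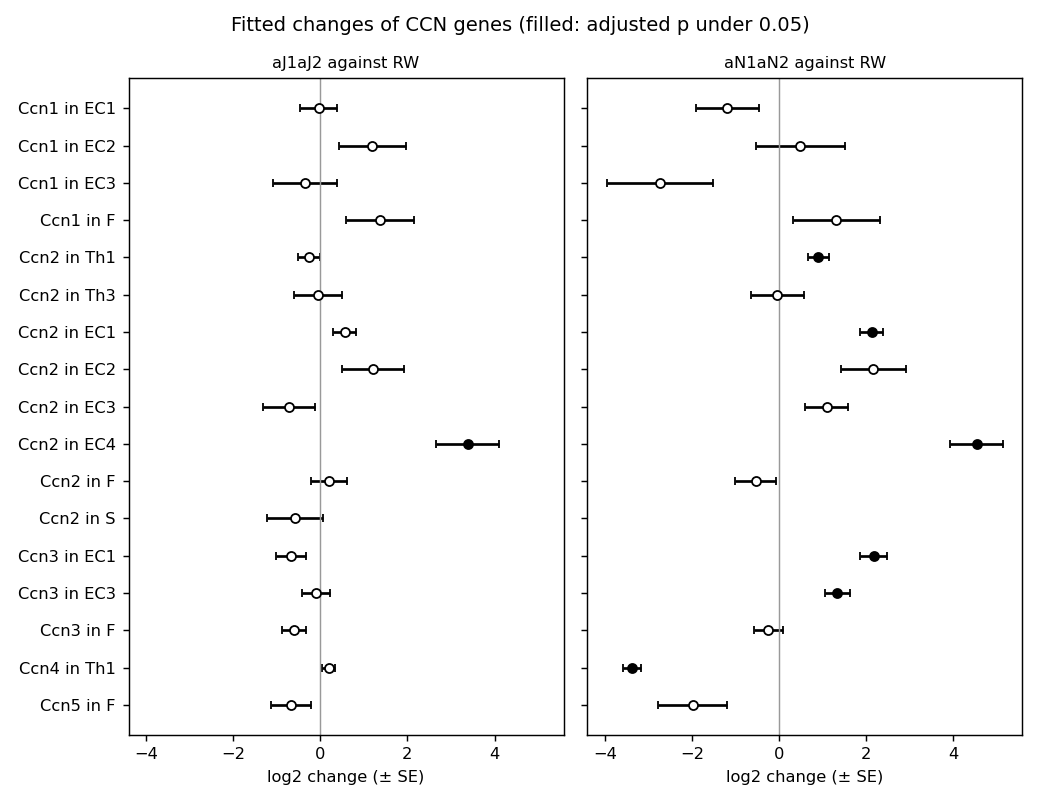
Log2 change of each tested member by label for ligand blockade and for receptor blockade, each against RW. Error bars are 1 standard error, and points are filled where the edgeR adjusted p is under 0.05. For receptor blockade against RW, Ccn4 in Th1 is the only called fall, and Ccn2 in Th1, EC1 and EC4 and Ccn3 in EC1 and EC3 are the called rises.

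**Figure D4:**
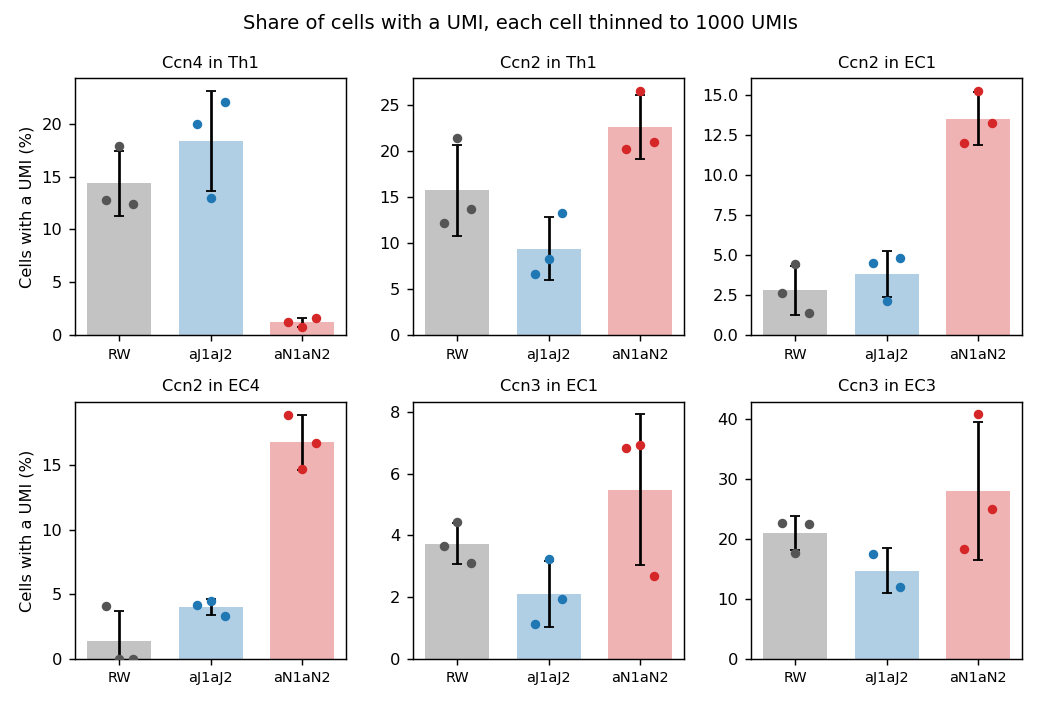
Share of cells with at least 1 UMI of a member after thinning each cell to 1000 UMIs, in percent, by antibody group. Bars are means, error bars SD and points samples. The aN1aN2 samples lie apart from RW for Ccn4 in Th1 and for Ccn2 in EC1 and EC4, and overlap RW for Ccn2 in Th1 and for Ccn3.

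Genes that work with the CCN proteins were read from lists, each given as counts of called genes and a median change. Over all genes tested, 1814 were higher and 1839 lower of 10627 in Th1 under receptor blockade against RW, 827 and 837 of 9369 in EC1, 227 and 156 of 6476 in EC3, 346 and 308 of 3101 in EC4, and 444 and 514 of 4840 in F. Among 13 receptors for CCN proteins (integrin subunits, the proteoglycan Sdc4, Lrp1, Lrp6, Cd44 and Igf2r), 8 were tested in Th1 for receptor blockade against RW. Of these 3 were higher and 1 lower, and their median change was 0.09 against 0.02 over all 10627 genes. Itgb5 rose by 1.16 (SE 0.11, edgeR adjusted p 1.86e-06) and Itgav by 0.73 (SE 0.11, 0.000157), the 2 chains of integrin alpha-v beta-5, a receptor for Ccn1 and Ccn2. Itgb1 fell by 0.27 (SE 0.09, edgeR adjusted p 0.0325) and Lrp6 rose by 0.39 (SE 0.14, 0.0365). In EC1, 2 of 10 were higher and 1 lower (median 0.34 against -0.01): Itgb5 rose by 1.02 (SE 0.18, edgeR adjusted p 0.000377), Itgb3 rose by 1.31 (SE 0.37, 0.0150) and Itgb1 fell by 0.50 (SE 0.12, 0.00492). Itgb5 rose in EC4 as well, by 1.32 (SE 0.27, edgeR adjusted p 0.000566), and Itga6 fell there by 1.19 (SE 0.25, 0.000986). In EC3, Itgb3 rose by 2.05 (SE 0.38, edgeR adjusted p 0.00522), the only one called of 10.

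The list of YAP, TAZ and TEAD genes with their targets other than Ccn1 and Ccn2 had 26 genes. In Th1, 9 of 20 tested were higher and 2 lower, with a median of 0.60 against 0.02 over all genes. Tead3 rose by 1.30 (SE 0.20, edgeR adjusted p 0.000153), F3, the gene of tissue factor, by 0.77 (SE 0.15, 0.00133), Yap1 by 0.65 (SE 0.15, 0.00306) and Tead2 by 1.06 (SE 0.24, 0.00358). In EC1, where the Ccn2 rise was larger, 2 of 15 were higher and 1 lower and the median was 0.03 against -0.01: Tead2 rose by 1.23 (SE 0.29, edgeR adjusted p 0.00439), Nt5e rose by 1.71 (SE 0.50, 0.0197) and Tgfb2 fell by 2.09 (SE 0.54, 0.00888). In EC4 none of 7 passed in either direction (median -0.41 against -0.02), and in F none was higher and 2 of 13 were lower (median -0.13 against 0.01). In EC3 1 of 18 was higher and 4 lower (median -0.18 against -0.00), with Tgfb2 at -2.04 (SE 0.34, edgeR adjusted p 0.00248), and in EC2 none of 6 passed (median -0.05). No gene of this list passed for ligand blockade against RW in any label tested.

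Among 15 genes of TGF-beta signalling, 4 of 13 tested in Th1 were higher and 2 lower (median -0.05 against 0.02). Tgfbr3, a co-receptor, rose by 1.45 (SE 0.16, edgeR adjusted p 5.30e-06), Smad4 rose by 0.84 (SE 0.13, 0.000230), and the TGF-beta target Pmepa1 fell by 1.12 (SE 0.17, 0.000157), and Ltbp1, which stores the ligand in the matrix, fell by 1.17 (SE 0.24, 0.00143). In EC1, 2 of 11 were higher and 3 lower (median -0.21 against -0.01). Tgfbr3 rose by 2.36 (SE 0.18, edgeR adjusted p 8.75e-09) and the inhibitory Smad7 fell by 2.19 (SE 0.22, 3.28e-07). The same pair moved in EC4, Tgfbr3 by 1.99 (SE 0.25, edgeR adjusted p 1.27e-06) and Smad7 by -1.98 (SE 0.34, 9.11e-05).

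A list of 14 Wnt and beta-catenin genes held feedback targets such as Axin2, the class in which Ccn4 is placed, beside components of the pathway. Of these 6 were tested in Th1, and none passed under receptor blockade (median 0.24 against 0.02). In EC1 only 3 were tested, a co-receptor, a transcription factor and beta-catenin, and no feedback target was among them. Lrp5 rose by 1.30 (SE 0.16, edgeR adjusted p 5.13e-06), Tcf7l2 rose by 0.78 (SE 0.22, 0.0147), and Ctnnb1, the gene of beta-catenin itself, fell by 0.58 (SE 0.11, 0.000814).

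Immediate early and dissociation genes share their quick induction with Ccn1 and Ccn2. Of 16, in Th1 3 of 13 were higher and 1 lower (median 0.41): Zfp36 rose by 1.63 (SE 0.24, edgeR adjusted p 0.000118), Btg2 by 1.32 (SE 0.22, 0.000269) and Hspa1a by 0.58 (SE 0.14, 0.00450), while Jun fell by 0.91 (SE 0.29, 0.0258). In EC1, 3 of 14 were higher and 3 lower (median 0.01): Nr4a1 fell by 4.11 (SE 0.80, edgeR adjusted p 0.000748), Hspa1a fell by 2.84 (SE 0.49, 0.000211) and Jund rose by 0.85 (SE 0.18, 0.00146). Ligand blockade against RW gave 0 higher and 4 lower of 14 in EC1 (median -0.55 against 0.01), with Hspa1a at -2.59 (SE 0.33, edgeR adjusted p 0.000251). In EC2, 4 of 8 were higher under receptor blockade and none lower (median 0.92), with Ier3 at 2.58 (SE 0.49, edgeR adjusted p 0.00200). In EC4, 3 of 10 were higher and 1 lower (median 0.58), where Ier3 rose by 2.32 (SE 0.45, edgeR adjusted p 0.000383) and Nr4a1 fell by 4.12 (SE 0.69, 7.20e-05). In F, where no member passed, 6 of 12 were higher and none lower (median 0.96 against 0.01), Fos by 3.50 (SE 0.65, edgeR adjusted p 0.000837) and Junb by 1.65 (SE 0.31, 0.000769). The part of such genes in the member changes was not tested.

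Other matricellular proteins changed in their own ways. In F, 1 of 9 was higher and 5 lower under receptor blockade (median -0.74 against 0.01). The markers of the label itself moved with them: of 6 fibroblast markers, collagen genes included, 4 were called lower and 1 higher under receptor blockade (median -1.99), and 2 lower under ligand blockade. Sparc fell by 2.86 (SE 0.25, edgeR adjusted p 2.05e-07), Spon2 fell by 4.20 (SE 0.60, 6.35e-05), Smoc2 fell by 1.07 (SE 0.27, 0.00756) and Postn fell by 6.17 (SE 1.54, 0.00764), from 184 to 2.10 CPM. Under ligand blockade Sparc in F fell by 1.06 (SE 0.22, edgeR adjusted p 0.0376) and Spon2 fell by 2.10 (SE 0.29, 0.00480), the 2 called there. In Th1, 2 of 7 were higher and 3 lower: Smoc2 fell by 1.18 (SE 0.10, edgeR adjusted p 3.53e-07) and Sparc fell by 0.67 (SE 0.10, 7.94e-05), and Spon1 rose by 1.15 (SE 0.21, 0.000678). In EC1, Thbs1, which has the thrombospondin module in common with the CCN proteins, rose by 1.62 (SE 0.24, edgeR adjusted p 3.42e-05), while Hspg2 fell by 1.16 (SE 0.15, 8.78e-06) and Sparc fell by 1.00 (SE 0.15, 7.18e-05).

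The last list held targets of SRF and MRTF, which respond to actin as Ccn1 and Ccn2 do, beside the factors Srf, Mrtfa and Mrtfb themselves. In Th1 it gave 0 higher and 2 lower of 8 (median -0.42), of which Tpm1 fell by 0.71 (SE 0.12, edgeR adjusted p 0.000283). In EC3, 1 of 7 was higher and 3 lower (median -0.81). The factor Mrtfb rose by 1.5 (SE 0.24, edgeR adjusted p 0.00179), and the target Myl9 fell by 2.69 (SE 0.46, 0.00277). In the same sums 5 of 6 mural cell markers were called lower (median -2.02). In EC2, 2 of 6 were higher and none lower (median 1.36 against -0.02): Tagln rose by 2.40 (SE 0.70, edgeR adjusted p 0.0303) and Myl9 rose by 1.70 (SE 0.55, 0.0499). Tagln is also in the mural cell list, of which 1 of 4 was called higher in EC2.

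The genes most like each member were taken by Pearson r of log2(CPM + 10) over 105 sums of sample and label, among 14885 genes. These sums share libraries and cell types, so r describes where genes are found together and carries no test. Ccn4 was most like Slc23a1 (r = 0.84), Gm42597 (0.83), Plcd4 (0.83), Trpm6 (0.81) and Tbx22 (0.81). Among the genes most like Ccn2 were Nfia (0.84), Pam (0.83), Ryk (0.83) and Klf9 (0.82). Ccn3 was most like Eln, the gene of elastin (0.83), Fbln5 (0.82), which takes part in elastic fibre assembly, Prss23 (0.82), Nsg1 (0.82) and Sulf1 (0.80).

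Among the genes most like Ccn1 were Pcdh19 (0.80), the pericyte receptor gene Pdgfrb (0.79), Steap4 (0.78) and Rem1 (0.78). Ccn5 was most like Epha3 (0.92), followed by Gm43022, Osr2, Col8a2 and Cd248, each at 0.87. Between members r ran from -0.14, for Ccn4 with Ccn1 and with Ccn3, to 0.53 for Ccn2 with Ccn3 and 0.50 for Ccn1 with Ccn2, so no member was among the 5 genes most like another. Ranked by Spearman's rho in place of Pearson's r, 0 of the 5 genes stayed for Ccn1 and Ccn4, and 2 stayed for each of the other members.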

How the data were processed

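The authors deposited raw UMI counts per gene and cell (10x Genomics 3' v2) and an annotation with samples and cell labels. Cell Ranger and GRCm38 are named in the submitters' processing notes. Cell calling, labelling and strand use are not given in the sources used here. In 2619 annotation lines an unquoted comma was repaired. Symbols came from a reference table (52403 of 52636 identifiers matched). Titles give RW 3 and aJ1aJ2 1 no replicate number, so these numbers are only names.

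Counts were summed per sample and label (at least 20 cells) and tested with edgeR 4.0.16 (R 4.3.3, filterByExpr, TMM, quasi-likelihood, all samples in 1 fit, Benjamini-Hochberg) where 2 samples of each group had the sums. Nothing says that the pools were processed on separate days, so p-values measure the spread between these pools. No 2 samples of a group held the same library deposited again (chi-square per degree of freedom between samples 9.25 to 105), a check for copies only. The code of the fit was run on simulated counts of Th1, a check of the code only. DESeq2 1.42.0, other filters, cell minimums, series terms and leaving out samples were alternatives. Shares of cells used exact permutation tests, with cells under 1000 UMIs left out on thinning. No doublet caller was run.

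The members and lists were chosen with earlier results of these data known. Named from each list are up to 4 called genes with the smallest adjusted p, and for each member the 5 most alike genes, of which 1 for Ccn1 and 1 for Ccn2 are not reported here. RefSeq promoters and proteins of the members were not used here.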

Additional observations from a re-analysis of the deposited data

Results flagged for a closer look

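These values were picked out because the change of a member differed between 2 cell labels in a direct test of the difference (edgeR's quasi-likelihood test of the interaction, Benjamini-Hochberg adjusted over all genes, sample as a block). For Ccn2 the reference was F, which had the highest mean control level in unadjusted CPM, 413 against 396 in S, the samples of both overlapping. In TMM-adjusted CPM S was higher, at 509 against 451. Under receptor blockade against RW, Ccn2 changed more than in F by 1.39 in Th1, 2.67 in EC1, 2.41 in EC2 and 5.34 in EC4. Under receptor against ligand blockade the differences were 1.95 in Th1, 2.48 in EC1, 1.96 in EC2 and 2.18 in EC4. Under ligand blockade against RW only EC4 passed among the labels tested, at 3.16. For Th1 the difference from F against RW was lost when RW 1, RW 3, aN1aN2 2 or aN1aN2 3 was left out. For EC2 it was lost without RW 1, aN1aN2 1 or aN1aN2 3, and for EC4 under ligand blockade without RW 3 or aJ1aJ2 3. The change of Ccn2 in Th1 was below that in EC1 by -1.15 for receptor blockade against RW, a pair of labels added after values were seen.

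For Ccn3, the change under receptor against ligand blockade exceeded that in SM by 5.89 in EC1 and by 4.49 in EC3. In the SM sum of aJ1aJ2 4, 46 of 59 UMIs came from a single cell, and these differences were not run without that sample. Also added after values were seen, the change of Ccn3 in F was below that in EC1 by -2.58 against RW and by -2.68 against ligand blockade, and below that in EC3 by -1.73 against RW.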

How the results depend on the processing

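The limits are small sums (25 to 37 cells for EC3 under receptor blockade), low counts of Ccn1 and Ccn5, single cells that hold most UMIs of a sum, and a receptor blockade group that coincides with its series of sample numbers. For 30 tested changes and the differences and counts built on them, 492 alternative values kept direction and side of the threshold, 46 fell short of it, 22 newly passed it, 21 turned and 21 moved. For 2 DESeq2 values no adjusted p was given.

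Called members for ligand blockade against RW numbered 1. They numbered 0 with DESeq2, with only the 2 groups compared, with cells of at least 1000 UMIs, with the series as a term, within series B and with equal cells per sample, 3 with no filter on low counts, and 0 to 1 on leaving out a sample (0 without RW 3). Ccn2 in EC4, the change called in the main fit, was lost without aJ1aJ2 3 as well, so these counts need not be of the same member. For receptor blockade against RW 6 became 10 with no filter and 6 to 8 on leaving out a sample. For receptor against ligand blockade 8 became 5 with DESeq2 and with at least 40 cells, 4 with cells of at least 1000 UMIs, and 4 to 8 on leaving out a sample (4 without aJ1aJ2 4, and 5 without aJ1aJ2 1, aN1aN2 2 or aN1aN2 3). The cause was not tested.

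Directions turned for uncalled changes and in SM. On leaving out a sample, ligand blockade against RW ran from -0.56 to 0.06 for Ccn2 in Th1, -1.12 to 1.95 for Ccn1 in EC2, -0.41 to 0.10 for Ccn3 in EC3 and -0.01 to 2.90 for Ccn1 in F. Receptor blockade against RW ran from -1.04 to 0.02 for Ccn2 in F. Receptor against ligand blockade in SM ran from -5.02 to 0.45 for Ccn3, -2.22 to 0.42 for Ccn2 and -2.96 to 0.32 for Ccn1, where leaving out aJ1aJ2 4 leaves a lone sample that is assumed to vary like the other groups. Equal cells per sample gave 0.11 for Ccn2 in Th1 (ligand blockade) and 0.49 for Ccn1 in SM. Ccn3 in EC3 under ligand blockade was 0.11 with the series as a term and within series B, and, in alternatives chosen after seeing the data, 1.02 without fibroblast or mural marker cells, 0.05 without thyrocyte marker cells and 0.15 without the top cell. Ccn2 under receptor blockade was -0.18 in EC3 without the top cell, and in F 0.05 without it and 0.20 with at least 40 cells. The cause was not tested.

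Same-numbered RW and aN1aN2 samples did not deviate together (r from -0.03 to 0.03 in Th1, EC1, EC4 and F). This gave no sign that the numbers pair them, but cannot exclude it. The replicate block was fitted only on RW 1, RW 2, aN1aN2 1 and aN1aN2 2, so RW 3 and aN1aN2 3 were left out too. With the replicate block, 6 changes were called, as without it: -3.48 for Ccn4 in Th1, 0.99 for Ccn2 in Th1, 2.23 for Ccn2 in EC1, 3.84 for Ccn2 in EC4, 2.61 for Ccn3 in EC1 and 1.55 for Ccn3 in EC3. Ccn2 in F turned to 0.45 in this fit, where the block and the loss of RW 3 and aN1aN2 3 cannot be told apart. Without RW 3 alone it was 0.02.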
